A study of Drosophila melanogaster with 18 samples.

Results

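Pol II occupancy after activation of Alk in the whole Drosophila melanogaster mesoderm was read from 6 targeted DamID libraries of an 18-library series. The 3 libraries labelled Jeb came from embryos in which twi2xPE-GAL4, a driver active throughout the mesoderm, expressed both UAS-jeb and Dam-PolII, the Dam methylase fused to RNA polymerase II. The 3 control libraries, labelled Dam-PolII, came from embryos in which the same driver expressed the fusion alone in a wild-type background, so the driver and the fusion were common to both groups. All embryos were at stages 10 to 13, collected for 4 h and aged at 25 °C, and each library started from 50 µl of pooled embryos. The members were chosen by group label alone, and counts at GATC sites were summed over each gene (Release 6 coordinates). Labels do not say whether replicates came from separate crosses or cultures, so p-values measure the spread between these samples.

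Dam methylates GATC sites close to where the fusion binds, and DpnI then cuts the methylated sites, so that a gene traversed by Pol II gains counts at its GATC sites in the cells that express the driver. Jelly belly (Jeb) is the secreted ligand of the receptor tyrosine kinase Alk. In the embryo Jeb from the somatic mesoderm activates Alk in the neighbouring visceral mesoderm, where signalling through Ras and ERK specifies the founder cells that fuse with fusion-competent myoblasts to make the visceral muscle of the midgut. Embryos were processed whole, so more cells of a type and more Pol II per cell cannot be told apart.

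Total counts ran from 6056257 to 9854555 per library. The library labelled Jeb replicate 1 stood apart. At the 23 exonic GATC sites of jeb (FBgn0086677, chromosome 2R, 12085194 to 12119340) the Dam-PolII libraries held 24.1, 11.1 and 11.6 counts per 1000000 counts (CPM) and the Jeb libraries 6.98, 361 and 628 CPM in replicates 1 to 3. Counts above the controls at the jeb exons were thus present in Jeb replicates 2 and 3 and absent from the library labelled Jeb replicate 1. The 29 jeb sites outside exons held 30.9, 22.5 and 19.0 CPM in the Dam-PolII libraries and 23.1, 19.7 and 27.4 CPM in Jeb replicates 1 to 3, so they showed no rise. Of the 23 exonic sites, 19 adjoined no purine-ended fragment, that is, no GATC fragment with an A or G after GATC at both of its ends. Over the genome such sites gave 56.8, 56.2 and 56.0% of the counts in the Dam-PolII libraries and 56.1 and 60.5% in Jeb replicates 2 and 3, but 12.9% in the library labelled Jeb replicate 1. Act87E, an actin gene with 99.4% of its counts at such sites, held 31.8 CPM in that library against 1397 and 2008 CPM in Jeb replicates 2 and 3, so that whether the library carried UAS-jeb cannot be told from its low jeb value. Genes followed their sites, since the median log2 ratio of this library to the mean of the other Jeb libraries was 0.84 over the 2269 genes with under 20% of their counts at such sites and -1.53 over the 4572 genes with at least 80%. It was also the most concentrated, with 50% of its counts at 1275 sites, against 3298 to 4199 sites in the other 5 libraries. Results are therefore given with all 3 Jeb replicates and without replicate 1. Mesoderm markers (twi, sna, Mef2, how, htl, stumps and zfh1) had a median of 15.1 to 17.5 CPM per GATC site in the Dam-PolII libraries and neural markers 1.89 to 2.48, against 1.16 to 1.21 over all genes tested.

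**Figure D1:**
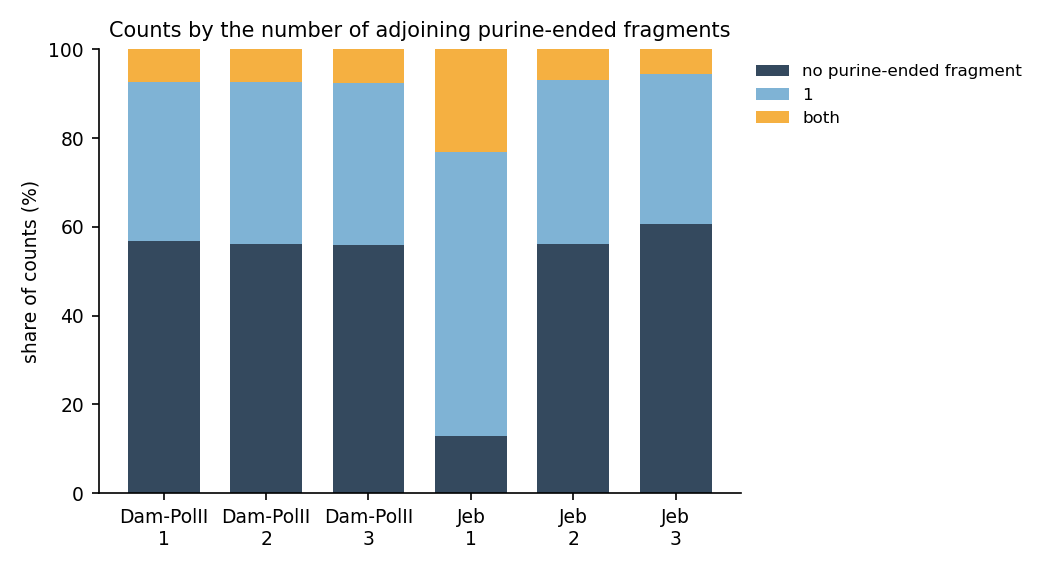
Share of counts (%) in each of the 6 libraries at GATC sites that adjoin no purine-ended fragment, 1 or both. The library labelled Jeb replicate 1 had 12.9% of its counts at sites with none, and the other 5 libraries 56.0 to 60.5%.

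With all 3 Jeb replicates, 0 of 12608 genes were called at an adjusted p under 0.01 (edgeR's quasi-likelihood test, Benjamini-Hochberg; 0% called), while 877 had an unadjusted p under 0.05. The same table gave 23 calls with DESeq2, 0 with limma-voom and 68 with limma-voom when each library was weighted by its quality. Of those 68 genes, 64 were also called without replicate 1. The common biological coefficient of variation was 0.570 with replicate 1 and 0.367 without it. On counts simulated with the spread of all 6 libraries given equally to each, 1% of genes changed 4-fold were called. In the data the spread was unequal, with a chi-square per degree of freedom of 70.2 and 81.7 between replicate 1 and the other Jeb libraries. Between Jeb replicates 2 and 3 it was 11.4. The simulation therefore does not give the power of the test on these libraries. Leaving out the library labelled Jeb replicate 1, 100 of 13057 genes were called, 80 higher in Jeb (0.613% of genes tested) and 20 lower (0.153%). In these 100 genes both remaining Jeb libraries lay outside the range of the 3 Dam-PolII libraries, as they did in 33.7% of all genes tested. The count depended on single libraries, with 9, 6 and 32 genes called without Dam-PolII replicate 1, 2 or 3 and 839 and 337 without Jeb replicate 2 or 3. The labels do not say whether the replicate numbers pair the libraries. A fit with the number as a replicate block called 157 genes, 78 higher and 79 lower. With library totals in place of TMM factors, 119 genes were called, of which 63 were higher and 56 lower, and the median log2 fold change of all genes was -0.13 in place of -0.02.

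**Figure D2:**
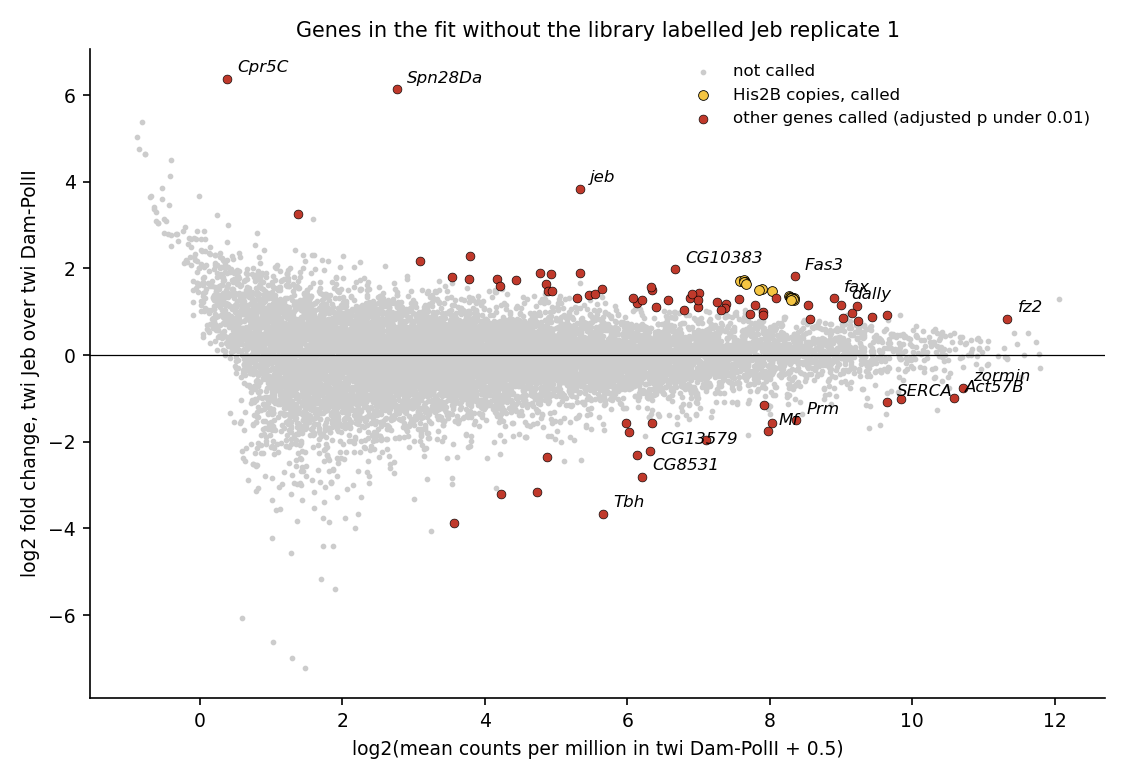
Log2 fold change of each gene, twi Jeb over twi Dam-PolII, without the library labelled Jeb replicate 1, against its mean level in the 3 Dam-PolII libraries. Coloured points are the 100 genes called, 80 above 0 and 20 below it, and yellow points are the 23 His2B copies.

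Of the visceral mesoderm genes, Fas3 rose. Fas3 encodes Fasciclin 3, a homophilic adhesion protein of the immunoglobulin family that marks visceral founder cells and the visceral muscle. The gene (FBgn0000636, chromosome 2L, 18320102 to 18393441) held 311, 338 and 326 CPM in the Dam-PolII libraries and 450, 1092 and 982 CPM in Jeb replicates 1 to 3. All 3 Jeb libraries lay above every control, the library labelled replicate 1 least so. Without that library the log2 fold change was 1.82 ± 0.14 (SE, adjusted p = 1.76e-05, edgeR), and with it 1.64 ± 0.32 (adjusted p = 0.669). Of 72 GATC sites tested in the gene 68 were higher in Jeb, and 2 of them were called, both in an intron and at the ends of a single fragment of 403 bp. The other 95 sites, without these 2, summed to 303, 331 and 319 CPM in the Dam-PolII libraries and to 704 and 605 CPM in Jeb replicates 2 and 3. In the twi libraries labelled Alk.DN, where by the label the extracellular part of Alk blocks the receptor, Fas3 held 368 ± 19.6 CPM (SD, n = 3), next to 325 ± 13.6 CPM (SD, n = 3) in the shared controls. Counts in the Alk.DN libraries were spread more widely, with 50% of them at 10426 to 11202 sites, which bears on every Alk.DN level given here and was not corrected for. Polr2A, the polymerase subunit gene, was read as a check of the fusion. At its exonic sites the Alk.DN libraries held 36.6 to 44.8 CPM, against 260 to 269 CPM in the controls. Alk held 143 ± 7.77 CPM in them and 202 ± 38.9 CPM in the controls (SD, n = 3 each). Whether these libraries carried the constructs of their label was not tested.

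The sites called in Fas3, fax, abd-A and Tbh are printed here as the Release 6 plus strand (RefSeq assembly), because much of the difference in these genes sits at them. Capitals mark GATC and the base on either side, which decides whether the fragments that start there can be purine-ended.
Fas3, chr2L:18333404-18333447: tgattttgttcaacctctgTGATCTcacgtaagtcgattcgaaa
Fas3, chr2L:18333807-18333850: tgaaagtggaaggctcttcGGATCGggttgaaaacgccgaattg
fax, chr3L:16408528-16408571: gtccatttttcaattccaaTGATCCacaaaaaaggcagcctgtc
fax, chr3L:16410284-16410327: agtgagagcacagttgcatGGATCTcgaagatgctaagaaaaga
abd-A, chr3R:16810627-16810670: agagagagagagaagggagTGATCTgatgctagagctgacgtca
Tbh, chrX:8023523-8023566: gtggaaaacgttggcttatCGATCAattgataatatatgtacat
Tbh, chrX:8024010-8024053: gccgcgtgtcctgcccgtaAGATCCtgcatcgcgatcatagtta
The first Fas3 site held 6.11, 5.07 and 5.49 CPM in the Dam-PolII libraries and 4.21, 168 and 183 CPM in Jeb replicates 1 to 3. The second, which adjoins no purine-ended fragment, held 1.65, 2.44 and 1.097 CPM against 39.9, 220 and 195 CPM. At this second site the library labelled Jeb replicate 1 was also above every control. The sites held 219 to 253 and 279 to 297 CPM with the visceral mesoderm driver bap-GAL4 and Dam-PolII alone by the label, and 5.53 to 7.14 and 0.945 to 1.73 CPM in the twi libraries labelled Alk.DN. Those bap control libraries also held 380 to 477 CPM over jeb, more than the twi controls at 30.6 to 55.0 CPM, so that their label is in doubt and their levels are given with no test. Whether a mix-up of labels or stocks extends to the twi libraries cannot be told from the counts.

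**Figure D3:**
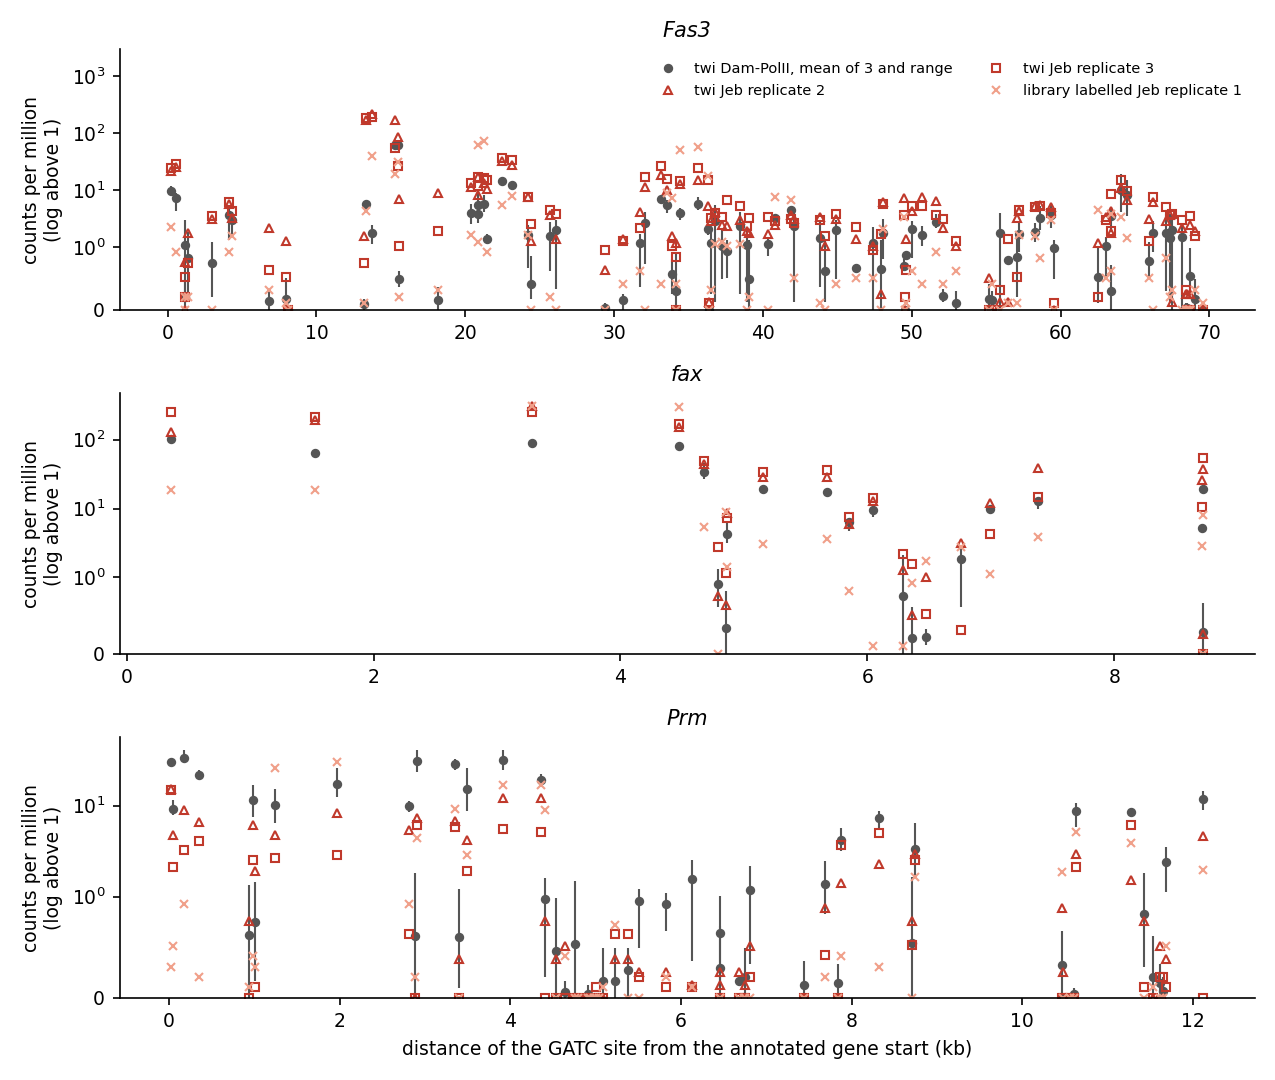
CPM at each GATC site of Fas3, fax and Prm by its distance from the annotated gene start (kb; the CPM axis is linear below 1 and logarithmic above). Most sites of Fas3 and fax were higher in Jeb replicates 2 and 3 than in the Dam-PolII libraries (68 of 72 and 16 of 17 sites tested), and most sites of Prm were lower (21 of 22).

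Of the 8 genes that the study named as targets of Alk, 1 was called, fax. The gene failed axon connections (fax; FBgn0014163, chromosome 3L, 16402796 to 16411828) codes for a protein known from axon growth in the embryonic nervous system. It held 477, 490 and 462 CPM in the Dam-PolII libraries and 693, 1040 and 1127 CPM in Jeb replicates 1 to 3, and the groups did not overlap with or without replicate 1. The log2 fold change was 1.32 ± 0.12 without replicate 1 (SE, adjusted p = 0.00014, edgeR) and 1.31 ± 0.29 with it (adjusted p = 0.669). Without Dam-PolII replicate 2 the call was lost (adjusted p = 0.016). Its 2 called sites lay in introns, 1524 and 3280 bp from the gene start, and the nearer one rose from 62.0 to 67.7 CPM in the controls to 196 and 211 CPM in Jeb replicates 2 and 3. The farther site, which adjoins a purine-ended fragment, held 88.4 to 89.8 CPM in the controls and 312, 313 and 255 CPM in Jeb replicates 1 to 3. In the twi libraries labelled Alk.DN fax held 245 ± 5.37 CPM (SD, n = 3), below the shared controls at 477 ± 14.2 CPM.

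The remaining named targets missed the threshold. CG11658 held 570, 572 and 529 CPM in the controls and 1271, 950 and 790 CPM in Jeb replicates 1 to 3, with all Jeb libraries above all controls (log2 fold change 0.79 ± 0.14, adjusted p = 0.0102 without replicate 1, edgeR). The T-box factor gene org-1, a marker of the visceral founder cells, held 175, 166 and 157 CPM against 176, 305 and 264 CPM (0.92 ± 0.17, adjusted p = 0.012). The BMP ligand gene dpp held 634, 664 and 623 CPM against 719, 850 and 1003 CPM (0.67 ± 0.13, adjusted p = 0.0135). For kirre, the founder cell receptor of myoblast fusion, the log2 fold change was 0.42 ± 0.11 (adjusted p = 0.0556), although 1 of its 218 sites tested was called, an intronic site that held 5.85 to 7.76 CPM in the controls and 46.3 and 34.2 CPM in Jeb replicates 2 and 3. The log2 fold change of Hand, a bHLH factor gene of heart and visceral mesoderm, was 0.42 ± 0.22 (adjusted p = 0.402). Kah, which codes for a zinc finger factor, and Sumo, the small ubiquitin-like modifier, had -0.04 ± 0.12 (adjusted p = 0.928) and 0.12 ± 0.26 (adjusted p = 0.885). Of 36 Kah sites tested 18 were higher and 18 lower, none called. The one with the smallest p, in an intron, held 20.6 to 22.8 CPM in the controls and 51.5 and 46.6 CPM in Jeb replicates 2 and 3. By in situ hybridization the study saw Kah mRNA rise throughout the visceral mesoderm when this driver expressed Jeb, a measure unlike occupancy summed over the gene. The study also described positive Jeb peaks in occupancy profiles of selected genes, Kah and Sumo among them. Because the Jeb samples varied, it used them for qualitative reading alone. With all 3 Jeb replicates the log2 fold changes were 1.29 for CG11658, 0.89 for org-1, 0.76 for dpp and 0.35 for kirre. Those of Hand, Kah and Sumo were 0.71, -0.42 and 2.23, and none was called. The single site of Sumo held 259 CPM in Jeb replicate 1 against 36.9 and 36.4 CPM in replicates 2 and 3. Without replicate 1 the median over the 8 genes was 0.54, against -0.02 over all genes tested, and 7 of the 8 were above 0. The study chose these genes partly on this series, so that their direction is not independent evidence.

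**Figure D4:**
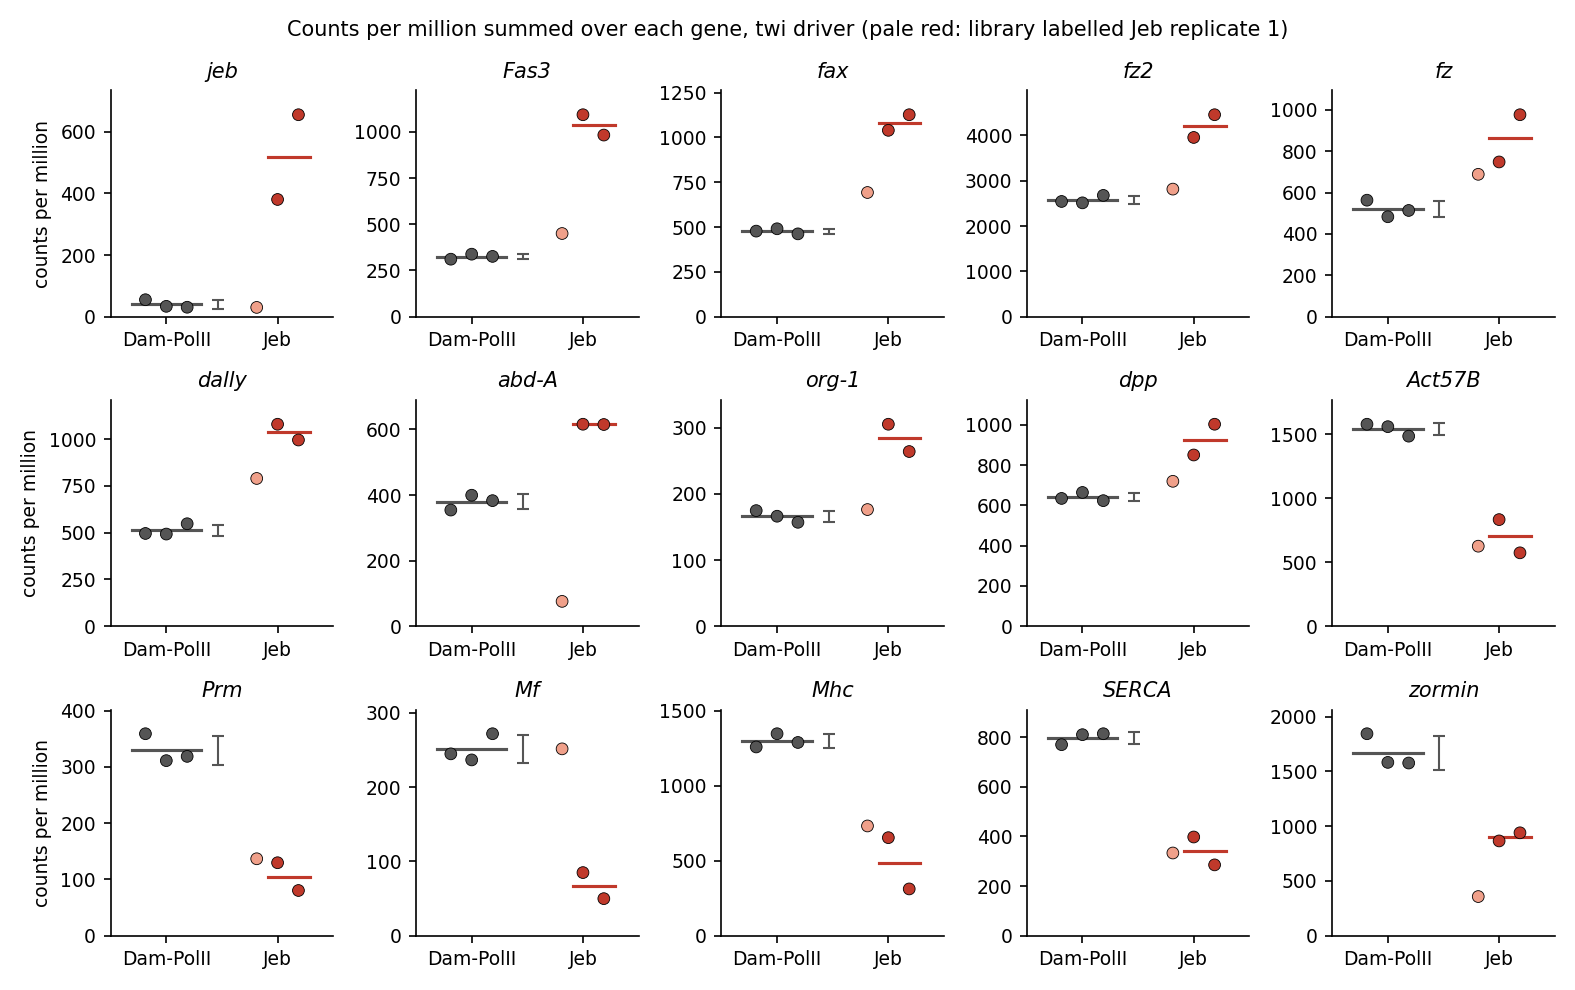
CPM summed over 15 genes in the 3 Dam-PolII libraries (grey; line, mean; error bar, SD, n = 3) and the 3 Jeb libraries (red; line, mean of replicates 2 and 3; pale red, the library labelled Jeb replicate 1). Jeb replicates 2 and 3 lie above all controls in jeb, Fas3, fax, fz2, fz, dally, abd-A, org-1 and dpp and below all controls in Act57B, Prm, Mf, Mhc, SERCA and zormin.

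Among 9 visceral mesoderm genes, Fas3 was the only one called, and 8 had a log2 fold change above 0 (median 0.43). The homeobox genes bap and H2.0 had 0.69 ± 0.26 (adjusted p = 0.197) and 0.60 ± 0.16 (adjusted p = 0.0562), and the forkhead factor gene bin 0.37 ± 0.19 (adjusted p = 0.381). Alk itself held 247, 175 and 184 CPM in the controls and 80.04, 202 and 349 CPM in Jeb replicates 1 to 3, which overlapped (0.58 ± 0.22, adjusted p = 0.212). Of 14 genes from ligand to kinase in the Alk pathway, only jeb was called, which these embryos also carried as UAS-jeb. Its rise lay at exonic sites and was not seen at its sites outside exons. Without jeb the range was -0.73 for Ras85D to 0.58 for Alk.

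The midgut signalling genes, which pattern the visceral mesoderm along the gut, were all above 0 in the fit without replicate 1 (11 of 11, median 0.40). The Hox gene abd-A (FBgn0000014, chromosome 3R, 16807214 to 16830049), which controls Wg and Dpp signalling in the middle of the midgut, was the one called. It held 354, 399 and 383 CPM in the controls and 75.6, 616 and 615 CPM in Jeb replicates 1 to 3. Replicates 2 and 3 were above every control and the library labelled replicate 1 below, and 90.2% of its counts in the other 5 libraries came from sites that adjoin no purine-ended fragment. The log2 fold change was 0.84 ± 0.14 without replicate 1 (adjusted p = 0.00636, edgeR) and 0.38 ± 0.56 with it (adjusted p = 0.878). The call was lost without any of the Dam-PolII libraries (adjusted p = 0.0582 to 0.092) and in the replicate block (adjusted p = 0.0493), and at sites with a purine-ended fragment alone the log2 fold change was 0.07 (adjusted p = 0.939). The intronic site printed above rose from 24.4 to 30.4 CPM in the controls to 97.0 and 103 CPM in Jeb replicates 2 and 3. Besides dpp, the pair-rule zinc finger gene opa (0.83 ± 0.18, adjusted p = 0.023) and the ETS factor gene pnt (0.50 ± 0.12, adjusted p = 0.034) had an adjusted p under 0.05, and wg had 0.62 ± 0.19 (adjusted p = 0.105). At that looser threshold 2.06% of all genes were higher and 1.03% lower.

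Both Frizzled receptor genes for Wingless were called, the only members called among 16 genes of the Dpp and Wg pathways. The gene fz2 (FBgn0016797, chromosome 3L, 19140975 to 19235373) held 2542, 2512 and 2676 CPM in the controls and 2814, 3954 and 4455 CPM in Jeb replicates 1 to 3, all above the controls. Its log2 fold change was 0.84 ± 0.09 (adjusted p = 0.00037, edgeR), and 108 of its 129 sites tested were higher with none called. The gene fz had 563, 483 and 514 CPM against 688, 748 and 976 CPM (0.86 ± 0.14, adjusted p = 0.00573). Either call was lost without Dam-PolII replicate 1 or 2, and that of fz also without replicate 3 (adjusted p = 0.017 to 0.127). Over this list the median was 0.28, and arm, the Drosophila beta-catenin gene, and Mad, the Smad that transduces Dpp, had an adjusted p of 0.0319 (0.66 ± 0.15) and 0.0456 (0.71 ± 0.17). Outside the lists, dally, the gene for a glypican that binds Wg and Dpp, was also called, with 496, 493 and 548 CPM against 790, 1080 and 996 CPM (1.16 ± 0.13, adjusted p = 0.000435).

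Of 13 ERK feedback and ETS genes, none was called, and 10 were above 0 (median 0.45). Besides pnt, the pointed regulator edl (0.66 ± 0.16, adjusted p = 0.0392) and cic, a repressor that ERK inactivates (0.56 ± 0.13, adjusted p = 0.0317), had an adjusted p under 0.05. The feedback inhibitor genes sty and aos held more in every Jeb library than in every control, most in replicate 1, and missed the threshold (adjusted p = 0.227 and 0.15). For sty, Jeb replicates 1 to 3 held 3823, 1792 and 1951 CPM against 1669.5 to 1763 CPM in the controls. For aos they held 817, 458 and 415 CPM against 322 to 367 CPM. The repressor gene aop (Yan) had less in every Jeb library, with 929.6, 2890.0 and 2336 CPM against 3356 to 3660.2 CPM (adjusted p = 0.24). In aop 83.0% of the counts came from sites that adjoin no purine-ended fragment, where replicate 1 was depleted. Jeb replicates 2 and 3 lay outside the range of the controls in 33.7% of all genes tested.

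Genes of the contractile apparatus had the opposite sign. Of 16 sarcomere genes 3 were called lower and none higher without replicate 1, against 0.153% and 0.613% of all genes tested. In that fit 13 of the 16 had a log2 fold change under 0, and the median was -0.87. The actin gene Act57B (FBgn0000044, chromosome 2R, 20944021 to 20946431) held 1579, 1560 and 1486 CPM in the controls and 626, 834 and 574 CPM in Jeb replicates 1 to 3 (-0.98 ± 0.16, adjusted p = 0.00636, edgeR). Every Jeb library lay below every control, and all 14 of its tested sites were lower in Jeb. The library labelled replicate 1 lay below every control in 58.2% of all genes tested. In Act57B 56.1% of the counts came from sites that adjoin no purine-ended fragment, where that library was depleted. Paramyosin (Prm; FBgn0003149, chromosome 3L, 8732858 to 8745310), a thick filament protein, had 359, 311 and 319 CPM at its gene in the controls and 137, 130 and 80.3 CPM in Jeb (-1.50 ± 0.23, adjusted p = 0.00293). The gene for myofilin (Mf; FBgn0038294, chromosome 3R, 15170625 to 15181510), also of the thick filament, held 245, 237 and 272 CPM against 251, 84.9 and 49.8 CPM (-1.75 ± 0.25, adjusted p = 0.00173). Here the library labelled Jeb replicate 1 lay within the controls, and with it the log2 fold change was -0.38 ± 0.69 (adjusted p = 0.903). Mf lies within Gyc88E, which shares its sites and was called with it.

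Muscle myosin heavy chain (Mhc) and the light chain genes Mlc1 and Mlc2 had an adjusted p of 0.0139 to 0.0181, with log2 fold changes of -1.27, -1.62 and -1.67. Jeb replicates 2 and 3 differed from each other in these genes, as in Mlc2 with 284 and 93.1 CPM against 649 to 691 CPM in the controls. SERCA, the calcium pump of the sarcoplasmic reticulum, and zormin, a titin-like protein of the Z-disc, were in none of the lists and were called lower. SERCA held 769 to 813 CPM in the controls and 333, 397 and 285 CPM in Jeb replicates 1 to 3. For zormin these were 1576 to 1844 CPM and 357, 865 and 939 CPM, with 88.1% of its counts at sites that adjoin no purine-ended fragment. The call of each of the 3 sarcomere genes was lost without any single Dam-PolII library (adjusted p = 0.0121 to 0.105). Over the whole list, CPM summed to 14086 to 14683 in the Dam-PolII libraries and to 10159, 10305 and 7730 in Jeb replicates 1 to 3. With all replicates the median log2 fold change was -0.42, and 6 of the 16 sarcomere genes were above 0. Against the same controls the twi libraries labelled Alk.DN held 119 ± 1.69 CPM at Act57B, 121 ± 11.05 CPM at Prm and 339 ± 20.1 CPM at SERCA (SD, n = 3 each).

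None of 9 early mesoderm genes was called, and 9 of 9 had a log2 fold change above 0 (median 0.25). The mesoderm determinant twi held 603, 591 and 632 CPM in the controls and 119, 786 and 932 CPM in Jeb (0.63 ± 0.13, adjusted p = 0.0174), and ths, an FGF ligand, 228, 253 and 238 CPM against 437, 371 and 384 CPM (0.80 ± 0.15, adjusted p = 0.0139). None of 12 myoblast fusion genes was called (median 0.12), nor of 16 somatic muscle identity genes (0.25) or 10 heart genes (0.20). Marker lists of other tissues had medians of 0.23 (12 neural genes), 0.15 (9 epidermis and trachea genes), 0.06 (8 endoderm and salivary gland genes) and -0.11 (11 fat body and blood cell genes), with none called. In that order 9, 9, 5 and 4 genes were above 0, as were 13 of the 16 somatic muscle identity genes. A mostly positive sign was thus not particular to the visceral, midgut and early mesoderm lists. The summed CPM of the other-tissue marker lists in Jeb replicates 2 and 3 and in the controls were 1509 and 1861 against 1693 to 1810, 750 and 1023 against 803 to 863, 1066 and 1067 against 1068 to 1111, and 4006 and 3988 against 5087 to 5218. Col4a1, a collagen gene of fat body and blood cells, had -1.19 ± 0.24 (adjusted p = 0.0167). The 15 heat shock genes tested had a median of -0.02 and 88 ribosomal protein genes one of -0.03, none called.

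**Figure D5:**
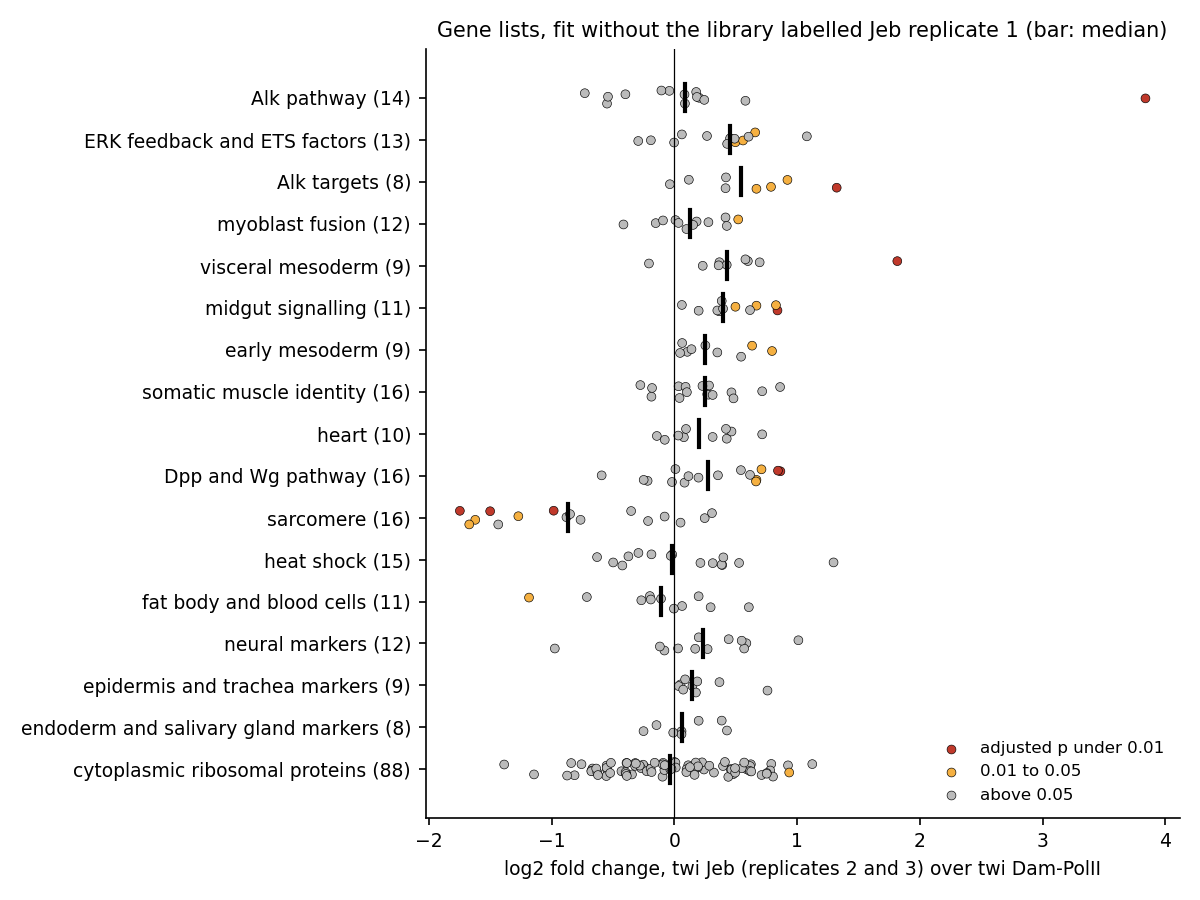
Log2 fold change of each gene in 17 lists without the library labelled Jeb replicate 1; the number of genes tested is in brackets, the bar is the median and the colour gives the adjusted p. The sarcomere list has a median of -0.87 and the Alk target list one of 0.54, against -0.02 over all genes.

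Of the 80 genes called higher, 23 were His2B copies, all those of the histone array on chromosome 2L. Each has 1 GATC site, and as copies are near-identical, reads cannot be assigned to any one of them. Together they held 6424, 6259 and 5984 CPM in the controls and 3988, 17529 and 12693 CPM in Jeb replicates 1 to 3 (median log2 fold change 1.348). The His1 copies, in the same array, held 9981 to 10794 CPM in the controls and 179, 9735 and 11978 CPM in Jeb replicates 1 to 3, and none was called (median 0.18). The other 57 genes called higher included 48 protein-coding ones. Among them were side-IV, which codes for an immunoglobulin superfamily protein, and comm, which controls sorting of the guidance receptor Robo, with log2 fold changes of 1.40 ± 0.20 and 1.31 ± 0.18 (adjusted p = 0.00236 and 0.00126). Ten-a, coding for a teneurin, T48, which acts in mesoderm invagination, and CycE, the G1 cyclin gene, had smaller changes of 0.98 ± 0.14, 0.87 ± 0.14 and 0.79 ± 0.13 (adjusted p = 0.00171, 0.00519 and 0.00545). In T48 and CycE the library labelled Jeb replicate 1 was highest of all, at 2382 and 1955 CPM against 672 to 721 and 591 to 618 CPM in the controls.

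Some of the largest changes rested on 1 or a few sites. Cpr5C, which codes for a cuticle protein (FBgn0029811, chromosome X, 5804677 to 5805344), held 1.16, 0.51 and 0.73 CPM in the controls and 209, 67.9 and 48.7 CPM in Jeb replicates 1 to 3 (6.38 ± 0.42, adjusted p = 8.91e-06, edgeR). Its site 149 bp from the start had 83.4% of the difference. Spn28Da, a serpin gene, had 9.08, 8.42 and 1.34 CPM against 43.5, 231 and 580 CPM (6.14 ± 0.52, adjusted p = 6.29e-05). Its change was spread more widely over the gene. All 6 sites tested were higher, 4 of them called, and the top site had 36.7% of the difference. In CG10383 a single intronic site, with 35.3 to 52.5 CPM in the controls and 1222, 316 and 302 CPM in Jeb, gave the whole difference, and at sites with a purine-ended fragment alone the gene had a log2 fold change of -0.53 (adjusted p = 0.491). The bap control libraries, whose label is in doubt, held 415 to 460 CPM at this intronic site. The bap libraries labelled Jeb held 255 to 1411 CPM there and the twi libraries labelled Alk.DN 40.5 to 49.4 CPM. Without the site that differed most, 40 of the 51 higher genes with more than 1 site and all 19 such lower genes still had Jeb replicates 2 and 3 outside the range of the controls.

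Among the lower genes, Tbh, which codes for the enzyme that makes octopamine from tyramine (FBgn0010329, chromosome X, 7995697 to 8027394), held 44.1, 58.9 and 46.9 CPM in the controls and 6.57, 3.94 and 3.26 CPM in Jeb (-3.66 ± 0.35, adjusted p = 0.000154). Its 2 intronic sites printed above had 9.63 to 14.9 CPM in every control, and the second had 0 counts in all 3 Jeb libraries, for which 3 counts would be 0.308 to 0.381 CPM. In the bap control libraries, whose label is in doubt, both sites also had 0 counts. The bap libraries labelled Jeb had 0 to 0.616 CPM at the first and 0 at the second, and the twi libraries labelled Alk.DN had 0 to 0.767 CPM at the first and 0.142 to 0.42 CPM at the second. CG13579 and CG8531 likewise had a called exonic site with 31.3 to 57.3 and 48.8 to 69.0 CPM in the controls and at most 0.64 and 2.67 CPM in the Jeb libraries. At the CG13579 site the twi libraries labelled Alk.DN held 0.192 to 0.639 CPM, the bap libraries labelled Jeb 0 to 0.139 CPM and the bap control libraries 0, so that at this site and at both Tbh sites the twi controls, among the groups given here, were the ones that stood apart. At the CG8531 site those groups held 19.5 to 23.8, 3.48 to 24.6 and 5.52 to 11.7 CPM. CG8160, CG8888, CG11883, CG15098 and CG3630 were the other lower genes with the smallest p (-3.16, -2.30, -1.79, -3.20 and -1.02). Of the remaining lower genes, Phm, a peptide-amidating enzyme gene, mTor and the nuclear pore gene Nup54 had -1.57, -1.57 and -1.15.

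The library labelled Jeb replicate 1 took no part in these calls. It lay below every control in 18 of the 20 genes called lower, against 58.2% of all genes tested. Among all 80 genes called higher it lay above every control in 26, or 32.5%, against 23.3% of all genes tested. In 51 of the 80, or 63.8%, it lay below every control. Among the 57 higher genes that are not histone copies it lay above every control in 26, or 45.6%, and below every control in 28. Counting only sites that adjoin a purine-ended fragment, with at least 60 counts in the gene, it lay above every control in 22 of 45 higher genes (25.5% of all genes). In 18 of these 45 it lay below every control, as it did in 16 of 17 lower genes (48.7% of all genes).

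At the level of single GATC sites, 0 of 76594 sites were called with all Jeb replicates and 154 of 86846 without replicate 1 (0.177%; 122 higher, 32 lower). Of these sites 57 were exonic, 58 intronic and 39 outside genes, and 22 lay in histone genes. Called sites were in genes in 74.7% of cases, against 80.2% of sites tested. Of the 100 genes called, 48 held at least 1 called site. Among the others were fz2 and Prm, in which 108 of 129 and 21 of 22 sites tested had the sign of the gene, and bab1, in which 1 site had 76.3% of the difference.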

How the data were processed

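The deposited table held whole-number read counts at 400733 GATC sites in 18 libraries, with no normalization. The authors obtained them from paired-end reads aligned by Bowtie2 to the FlyBase release 6 genome and assigned to GATC sites by a DamID-Seq script. Their own peak tables hold comparison results and were not used. Of the sites, 383688 lie on assembled chromosomes or the mitochondrial genome, and each matched a GATC of the release 6 reference exactly. Counts were summed over every site that overlaps a gene by at least 1 bp (Ensembl annotation; 16340 of 18358 genes have a site, median 8), so sites in overlapping genes count in each. Strand is not known from GATC counts, so overlapping and antisense genes cannot be separated. CPM is counts per 1000000 counts over all sites of a library.

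Genes were tested with edgeR 4.0.16 (R 4.3.3): filterByExpr with a minimum count of 10, TMM factors, quasi-likelihood F-test on the 6 libraries, or on 5 without Jeb replicate 1, Benjamini-Hochberg adjustment over all genes and a threshold of 0.01. SE is the log2 fold change over the square root of F. Alternatives used DESeq2 1.42.0 and limma 3.58.1. In simulated counts without replicate 1, 29% of genes changed 2-fold and 97% of those changed 4-fold were called, with 1 unchanged gene called. These counts had the same spread in every library, which the real libraries need not share. Libraries of a group differed by more than sampling noise (chi-square per degree of freedom at least 6.29), so none was counted as a duplicate. Genes were named as the 10 higher and 10 lower with the smallest p among those called and separated between groups, leaving out rDNA and unplaced scaffolds and genes sharing most sites, together with listed genes that were called, the 8 targets the study named, and jeb, Alk and Polr2A. As 4 His2B copies filled places in this rule, other called genes (dally, side-IV, comm, Ten-a, T48, CycE, SERCA, zormin, Phm, mTor, Nup54 and Gyc88E) were named after their values were seen, as were list members that were not called. The groups, gene lists and tests were chosen with earlier results of these data known. Symbols Arf51F and Hsp67Bb matched no annotated gene. Polr2A, which codes for the largest polymerase subunit and was read as a check of the fusion, had a log2 fold change of 0.23 ± 0.15 (adjusted p = 0.514).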

Additional observations from a re-analysis of the deposited data

How the results depend on the processing

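With all Jeb replicates, 0 genes were called at an adjusted p under 0.05, with either scaling, filter, limma-voom or the replicate block. DESeq2 called 23, quality weights 68, all libraries in one fit 2 and sites with a purine-ended fragment 1, and leaving out 1 library gave 0 to 100 genes and 0 to 154 sites, the calls coming without Jeb replicate 1 alone. Keeping every site with at least 1 count gave 86 sites.

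Without Jeb replicate 1, against 100 genes and 154 sites, the threshold of 0.05 gave 403 genes and 701 sites, DESeq2 437 genes, limma-voom 219 and with quality weights 217, every gene or site with at least 1 count 295 and 1434, and a minimum count of 50 gave 379 sites. All libraries in one fit gave 5 genes, all among the 100, and purine-ended sites 38 genes (25 among the 100) and 49 sites. The replicate block gave 157 genes (88 among the 100) and 41 sites. Same-numbered libraries did not deviate together (r = -0.02, 0.01 and -0.00). So few libraries, with Jeb replicate 1 among them, do not tell whether the number pairs them. Leaving out 1 further library gave 6 to 839 genes and 5 to 1561 sites; without Dam-PolII replicate 1, 2 or 3 the gene counts were 9, 6 and 32, without Jeb replicate 2 or 3, which leaves a lone Jeb library assumed to vary like the controls, 839 and 337. CG10383 reversed at purine-ended sites (-0.53), and jeb was no longer called there (0.27, adjusted p = 0.849). Over the named genes, 447 values kept direction and call, 76 lost the call, 29 gained it, 1 reversed, and Kah, which was not called, changed sign under 2 alternatives. In the simulated counts with 3 against 2 libraries of equal spread, changes of 2-fold were mostly below detection.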
